A study of Mus musculus with 9 samples.

Results

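The genes that encode the vacuolar proton pump (V-ATPase) and the machinery that senses nutrients at the lysosome for the kinase complex mTORC1 were followed in mouse embryonic fibroblasts after delivery of p21 or p16. The 45 genes were every row of the count table whose symbol begins with Atp6v0, Atp6v1 or Atp6ap, plus Lamtor1 to Lamtor5, the 4 Rag GTPase genes, Flcn, Fnip1, Fnip2, Slc38a9, Mtor, Rptor, Rheb, Tfeb, Tfe3 and Mitf. They were 45 of 24062 rows, and 37 of them passed the filter on low counts that left 14223 genes for testing. The p21 group carried a lentivirus for Cdkn1a, the p16 group a lentivirus for Cdkn2a, and the EV group an empty control lentivirus, with 3 libraries in each. All 3 groups were fibroblasts of the C57BL/6 strain, called non-senescent in the labels, and RNA was taken on day 4. p21 and p16 are inhibitors of cyclin-dependent kinases, so p21 against EV and p16 against EV ask what each inhibitor changed, and p21 against p16 asks where they differed. The labels do not say which promoter drove the delivered gene, or whether replicates were separate cultures or embryos, so the p-values measure the spread between these samples, which may be technical in part. The replicate 3 libraries differed from the others in Xist, as given below. The main fit does not pair libraries by replicate number, and a fit with that pairing is given beside it.

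The V-ATPase uses ATP to pump protons into lysosomes and other organelles. Its V1 sector, in the cytosol, splits ATP, and its V0 sector, in the membrane, carries the protons. On the lysosomal surface the Ragulator complex (LAMTOR1 to LAMTOR5) anchors pairs of Rag GTPases, which recruit mTORC1 when amino acids are present, and RHEB then activates the kinase. Active mTORC1 phosphorylates the transcription factors TFEB, TFE3 and MITF and keeps them out of the nucleus, and when they enter it they bind E-box motifs in the promoters of lysosomal and V-ATPase genes.

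The promoters of 4 V-ATPase genes are shown because their letters contain that E-box core and because these genes rose with p21. They were picked by motif and by result, and other V-ATPase genes that rose had no such core in their windows. The windows run from 250 bases before to 50 bases after the RefSeq transcription start, on GRCm38.p6, and capitals mark CACGTG or, where its flanks also match, TCACGTGA.
Atp6v1a promoter (chr16:44139210-44139509, minus strand): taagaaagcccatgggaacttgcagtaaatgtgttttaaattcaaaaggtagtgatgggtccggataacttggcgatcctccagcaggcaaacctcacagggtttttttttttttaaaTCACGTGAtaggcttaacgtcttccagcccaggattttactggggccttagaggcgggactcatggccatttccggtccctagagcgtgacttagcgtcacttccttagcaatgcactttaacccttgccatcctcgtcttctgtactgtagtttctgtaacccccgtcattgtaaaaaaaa
Atp6v0d1 promoter (chr8:105566015-105566314, minus strand): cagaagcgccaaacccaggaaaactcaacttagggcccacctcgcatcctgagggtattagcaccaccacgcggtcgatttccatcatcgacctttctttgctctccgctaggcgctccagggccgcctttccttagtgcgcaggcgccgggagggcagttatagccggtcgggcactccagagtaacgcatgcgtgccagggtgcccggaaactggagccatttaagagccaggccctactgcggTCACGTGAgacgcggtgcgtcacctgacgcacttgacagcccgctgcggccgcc
Atp6v0e promoter (chr17:26676146-26676445, plus strand): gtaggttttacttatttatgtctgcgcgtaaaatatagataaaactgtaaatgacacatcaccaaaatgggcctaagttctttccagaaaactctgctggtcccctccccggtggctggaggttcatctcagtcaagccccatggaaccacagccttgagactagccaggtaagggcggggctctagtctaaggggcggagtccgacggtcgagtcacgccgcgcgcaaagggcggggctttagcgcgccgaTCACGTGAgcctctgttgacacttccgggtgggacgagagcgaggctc
Atp6v0b promoter (chr4:117887280-117887579, minus strand): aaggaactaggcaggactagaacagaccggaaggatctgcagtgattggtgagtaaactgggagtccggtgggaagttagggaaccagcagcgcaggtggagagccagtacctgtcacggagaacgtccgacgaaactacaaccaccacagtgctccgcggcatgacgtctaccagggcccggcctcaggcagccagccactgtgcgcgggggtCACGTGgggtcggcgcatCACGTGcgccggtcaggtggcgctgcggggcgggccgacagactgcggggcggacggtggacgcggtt
Atp6v1a encodes the A subunit of V1, which binds and splits ATP, and the other 3 encode V0 subunits. The longer motif began 132 bases before the start in Atp6v1a, 4 bases before it in Atp6v0d1 and at base +3 in Atp6v0e. Atp6v0b had the core at 2 places, beginning at -36 and -18. Both motifs are palindromes, so 1 search covers both strands, and each TCACGTGA also counts as a CACGTG. A window was given in the RefSeq table for 36 of the 45 genes. CACGTG was in the windows of 10 of these 36 genes (27.8%), against 8.09% of all 27025 symbols in that table. TCACGTGA was in 3 of the 36 (8.33%), against 1.12% of all symbols. A match of letters is a description and shows no binding.

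Library totals ranged from 44455730 to 63152239 counts. Cdkn1a, the delivered gene of the p21 group, stood at 1429 to 1773 CPM (counts scaled to library depth, per 1e6 reads) in p21 libraries, 367 to 379 CPM in p16 libraries and 350 to 375 CPM in EV libraries. Cdkn2a stood at 43.98 to 48.1 CPM in p21 libraries, 1576 to 1927 CPM in p16 libraries and 34.7 to 42.2 CPM in EV libraries, so the labels matched the delivered genes. The replicate 3 library of each group stood apart from replicates 1 and 2 on the second principal component (18.9% of variance) and had 181 to 251 CPM of Xist, against at most 6.96 CPM in the other 6 libraries. Fibroblast markers were expressed in every group, with mean Col1a1 of 15122 CPM in p21, 15007 CPM in p16 and 13478 CPM in EV libraries. They did not all move alike. In the fit described below, 4 of the 8 markers rose and 2 fell with p21, where 19.8% of all genes rose and 20.1% fell. One that fell was Pdgfra, with means of 16.8 CPM in p21, 24.4 CPM in p16 and 33.5 CPM in EV libraries.

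The V-ATPase and sensing genes were mostly higher with p21 and, by less, with p16. In p21 against EV, 25 of the 37 tested genes rose and 0 fell at an adjusted p under 0.05 (edgeR quasi-likelihood test, Benjamini-Hochberg over all 14223 genes). Across all genes tested, 19.8% rose and 20.1% fell. The median log2 fold change of the 37 genes was 0.23, against 0.00 for all genes tested. In p16 against EV, 5 of the 37 rose and 0 fell, where 5.8% of all genes rose and 5.56% fell, and the median log2 fold change was 0.11. In p21 against p16, 13 of the 37 were higher and 0 lower in p21, where 6.15% of all genes were higher and 6.91% lower, and the median was 0.12. The 2 comparisons with EV share their 3 control libraries, so their values are given side by side.

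No member fell at the adjusted threshold, and unadjusted p-values under 0.05 pointed lower for 2 genes in p21 against EV, for 0 in p16 against EV and for 2 in p21 against p16. The share of all genes at an unadjusted p under 0.05 was not counted. Such counts, here and below, therefore have no background beside them. DESeq2 also called 0 members lower in each comparison, where it called 19.3% of all genes lower with p21, 7.78% lower with p16 and 8.87% lower in p21 against p16. With the replicate number as a block in the fit, 15 members rose with p16 in place of 5, where 11.3% of all genes rose, and DESeq2 called 11, where 8.09% of genes rose. With the block, 27 members rose with p21, where 24% of all genes rose, and 17 were higher and 1 lower in p21 against p16, where 11% were higher and 11.6% lower. All 3 p21 libraries lay above all 3 EV libraries for 26 of the 37 genes and below them for 2, against 24.2% and 25% of all genes tested. For p16 the libraries lay above those of EV for 25 of the 37 and below for 0, against 16.1% and 16.6% of all genes. The p21 libraries lay above those of p16 for 21 and below for 0, against 14.9% and 16.3% of all genes. These are bulk RNA libraries, in which fewer cells of a type and less RNA per cell cannot be told apart.

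**Figure D1:**
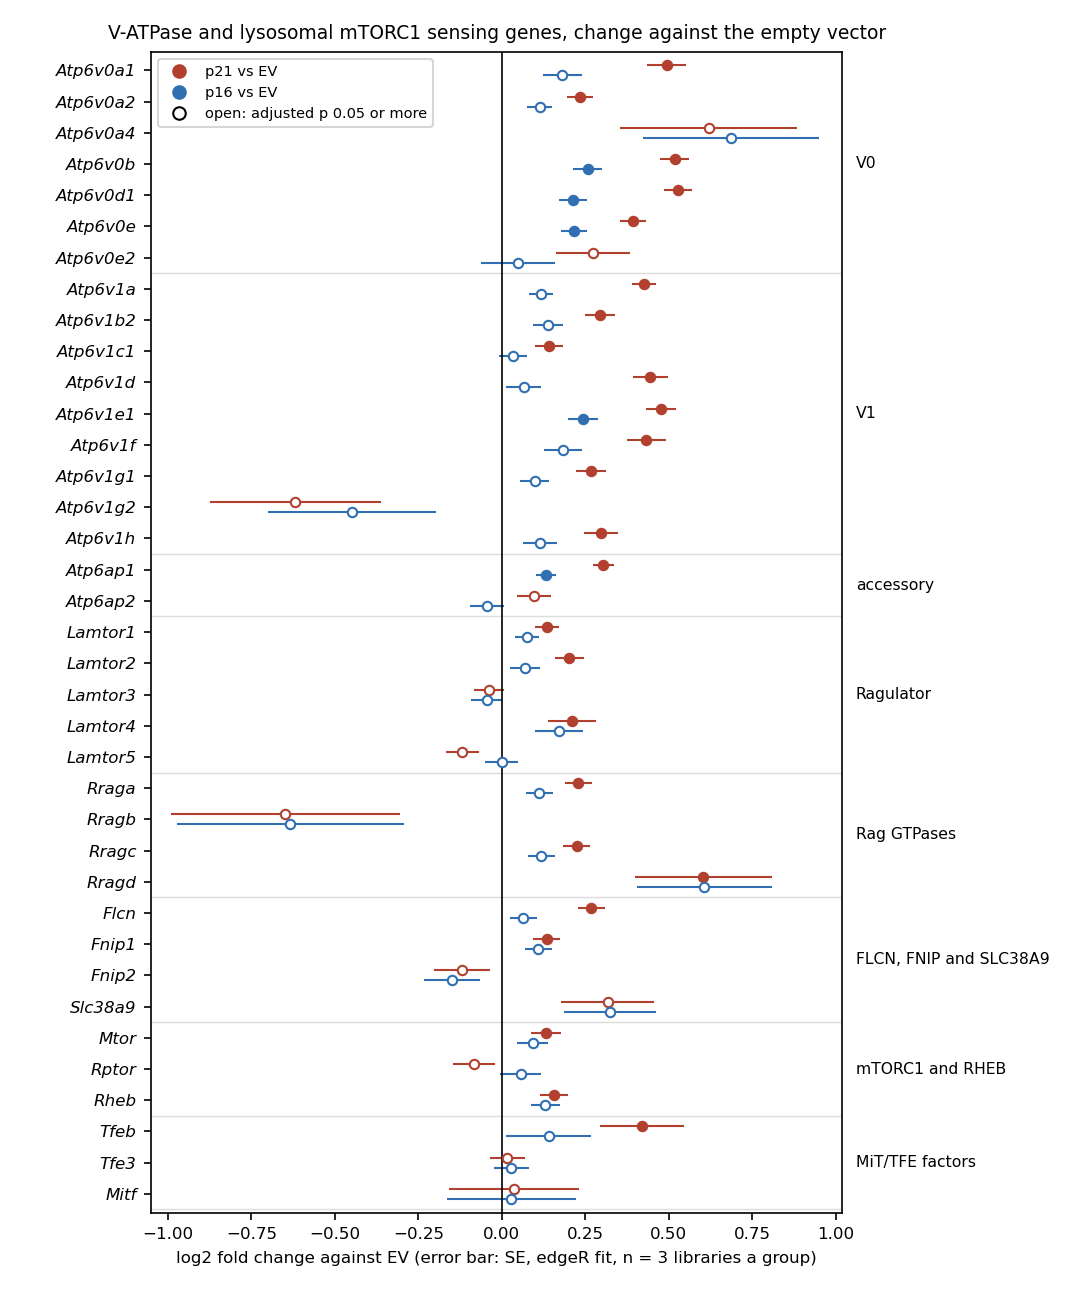
Log2 fold change against EV (x axis) of the 37 tested genes (rows, grouped by role), with p21 in red above p16 in blue, standard errors as bars, and filled points at an edgeR adjusted p under 0.05. The filled V0 and V1 points of p21 lie between 0.14 and 0.53, Rragd is the filled p21 point farthest to the right at 0.60, and the wide bars belong to genes under 10 CPM.

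The membrane sector V0 had the highest median. Of 9 V0 genes 7 were tested: 5 rose with p21, 3 rose with p16 and 4 were higher in p21 than in p16. Among all genes tested, 19.8%, 5.8% and 6.15% were higher in these comparisons. The median log2 fold change of the 7 V0 genes was 0.49 in p21 against EV, 0.21 in p16 against EV and 0.23 in p21 against p16. Taken library by library, the median log2 ratio to the EV mean was 0.42, 0.49 and 0.43 in the p21 libraries, 0.24, 0.24 and 0.18 in the p16 libraries and -0.02, 0.03 and -0.01 in the EV libraries. The groups formed 3 separate levels, with p16 between p21 and EV.

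Atp6v0d1, which encodes the d subunit that links the V0 ring to the stalk of V1, had 106.5, 101 and 104 CPM in p21 libraries, 81.8, 86.7 and 81.9 CPM in p16 libraries and 69.3, 73.5 and 73.2 CPM in EV libraries. No library of one group overlapped another group. Its log2 fold change was 0.53 ± 0.042 (SE) with p21 (edgeR adjusted p = 1.5e-06) and 0.21 ± 0.042 with p16 (adjusted p = 0.00777), and it was 24.3% higher in p21 than in p16 (adjusted p = 0.000466).

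Atp6v0b encodes a proton-carrying subunit of the ring. It had 76.7, 76.0 and 76.4 CPM in p21 libraries, 64.6, 62.9 and 63.7 CPM in p16 libraries and 51.2, 56.3 and 52.4 CPM in EV libraries. The p21 libraries were nearly equal to each other, and the groups again did not overlap. The log2 fold change was 0.52 ± 0.044 with p21 (edgeR adjusted p = 2.45e-06), 0.26 ± 0.044 with p16 (adjusted p = 0.00347) and 0.26 ± 0.044 in p21 against p16 (adjusted p = 0.00211). Of the exon bases of Atp6v0b 11.8% overlap Gm12841 on the opposite strand, and the library kit keeps no strand.

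Atp6v0e, whose small product completes the sector, had 104, 98.3 and 105 CPM in p21 libraries, 91.8, 91.9 and 88.2 CPM in p16 libraries and 76.7, 78.4 and 78.9 CPM in EV libraries. The 3 groups were again apart. It rose by 0.39 ± 0.039 on the log2 scale with p21 (edgeR adjusted p = 9.45e-06) and by 0.22 ± 0.039 with p16 (adjusted p = 0.00482). In p21 against p16 the log2 fold change was 0.18 ± 0.039 (adjusted p = 0.0112), and this call was lost without p21 replicate 1 (adjusted p = 0.0545).

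The a subunit forms the path by which protons enter and leave the ring, and its isoforms direct the pump to different organelles. Atp6v0a1 (isoform a1) had 65.7, 70.8 and 62.1 CPM in p21 libraries, 56.0, 54.9 and 48.8 CPM in p16 libraries and 47.2, 46.9 and 46.8 CPM in EV libraries. All p21 libraries were above all others. The log2 fold change was 0.49 ± 0.059 with p21 (edgeR adjusted p = 4.06e-05) and 0.31 ± 0.059 in p21 against p16 (adjusted p = 0.00449). With p16 it was 0.18 ± 0.059 (adjusted p = 0.07), or adjusted p = 0.00608 with the replicate block. Atp6v0a2 (isoform a2, of the Golgi and endosomes in other cells) had 103, 107 and 102 CPM in p21 libraries, 95.6, 97.6 and 93.3 CPM in p16 libraries and 89.2, 89.9 and 85.9 CPM in EV libraries. Its groups did not overlap, and its change with p21 was smaller, at a log2 fold change of 0.23 ± 0.038 (edgeR adjusted p = 0.00039). Neither other contrast passed for Atp6v0a2 (0.0766 for p16 against EV, 0.0539 for p21 against p16), and with the replicate block both did (0.0243 and 0.0139).

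Atp6v0a4, the kidney isoform, was near the lower limit, at 0.69 to 1.20 CPM in p21, 0.94 to 1.15 CPM in p16 and 0.56 to 0.74 CPM in EV libraries. It did not pass in any comparison, and passed in p21 against EV without p21 replicate 1 (edgeR adjusted p = 0.0252). Atp6v0e2, the second gene for the e subunit, had 5.42 to 6.18 CPM in p21, 4.53 to 5.35 CPM in p16 and 4.51 to 5.31 CPM in EV libraries. Its adjusted p with p21 was 0.0656, or 0.0297 with the replicate block. Atp6v0c and Atp6v0d2 did not pass the filter. Atp6v0c, the main ring subunit, had 0 to 4 counts in every library, although the ring needs it. Of its transcript, 39.5% matches other annotated genes at 95% identity or more, and 465 bases match the pseudogene Atp6v0c-ps2 at 99.8%. That pseudogene had 0 counts in every library. The part of these matches in the low count was not tested. Atp6v0d2, the osteoclast d subunit, had 0 to 6 counts.

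Within the a subunit, the share of each isoform was set by CPM per kb of exon, with Tcirg1 (isoform a3, of lysosomes and osteoclasts) added from outside the set. Atp6v0a1 made up 26.4%, 25.8% and 25.0% of the sum in p21 libraries, 24.1%, 23.9% and 21.4% in p16 libraries and 22.5%, 21.2% and 22.1% in EV libraries. Its share was thus higher in every p21 library than in any other library. Atp6v0a2 held 38.0% to 41.5% in all 9 libraries. Tcirg1 held 33.0% to 35.5% in p21, 34.0% to 38.2% in p16 and 35.7% to 38.6% in EV libraries, and did not pass in p21 against EV (log2 fold change 0.14 ± 0.069, edgeR adjusted p = 0.126). Shares were not tested, and they depend on the exon lengths used. Atp6v0a1 has 6556 annotated exon bases, and its longest coding transcript has 4008. The same limit holds for the shares of other genes below.

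**Figure D2:**
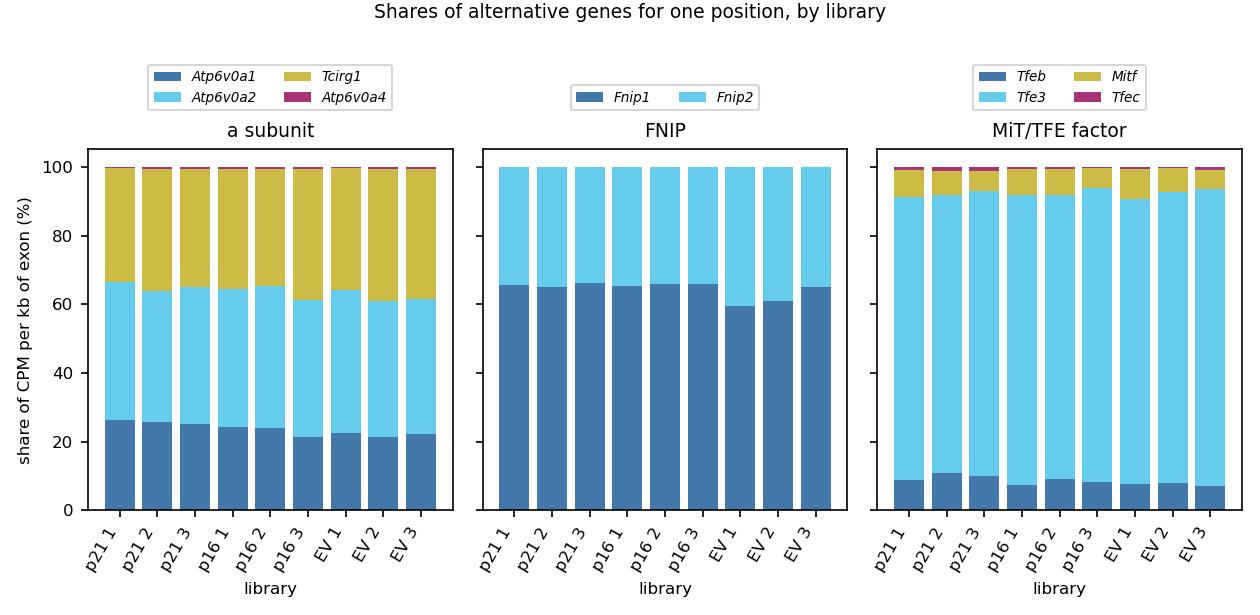
Share (%) of the summed CPM per kb of exon, in each of the 9 libraries (p21, p16, then EV), for genes that can fill the same place: the a subunit of V0 (with Tcirg1 added), the FNIP partner of FLCN and the MiT/TFE factors (with Tfec added). Bars are single libraries stacked to 100%. Atp6v0a1 takes 25.0% to 26.4% in p21 and 21.2% to 22.5% in EV libraries, and Fnip1 takes 65.1% to 66.3% in p21 and 59.5% to 64.9% in EV libraries.

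In the catalytic sector V1, 9 of 13 genes were tested, and 8 rose with p21, 1 rose with p16 and 7 were higher in p21 than in p16. These counts stand beside the same 19.8%, 5.8% and 6.15% of all genes, and 1 call with p16 is no result about the sector. Only Atp6v1g2 did not rise with p21. The median log2 fold change was 0.30 in p21 against EV, 0.12 in p16 against EV and 0.18 in p21 against p16. By library, the median log2 ratio to the EV mean was 0.34, 0.23 and 0.39 in p21, 0.10, 0.13 and 0.08 in p16 and 0.00, 0.00 and -0.01 in EV libraries. With the replicate block, 4 rose with p16, where 11.3% of all genes rose.

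The A and B subunits alternate in the head that splits ATP. Atp6v1a (A) had 154, 148 and 154 CPM in p21 libraries, 121, 122 and 125 CPM in p16 libraries and 116, 114 and 109 CPM in EV libraries. The p21 libraries stood far above the other 2 groups, which lay near each other without overlap. The log2 fold change was 0.43 ± 0.036 with p21 (edgeR adjusted p = 2.56e-06) and 0.31 ± 0.036 in p21 against p16 (adjusted p = 0.000183). With p16 it was 0.12 ± 0.036, with an adjusted p of 0.0582, or 0.0226 with the replicate block. Atp6v1b2 (B2, the B subunit of most tissues) had 78.2, 72.5 and 77.4 CPM in p21 libraries, 65.8, 70.04 and 68.8 CPM in p16 libraries and 63.2, 61.0 and 61.7 CPM in EV libraries. It was 22.7% higher with p21 (edgeR adjusted p = 0.000236). With p16 its log2 fold change was 0.14 ± 0.045 (adjusted p = 0.0677, or 0.0204 with the replicate block). Its difference between p21 and p16 passed narrowly (adjusted p = 0.0363) and was lost when p21 replicate 1 or 3 or any 1 p16 library was left out, at up to 0.128.

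The stalks and the regulators of V1 moved in the same direction with p21 by unequal amounts. Atp6v1e1 (E, of the outer stalk) had 93.9, 90.7 and 99.3 CPM in p21 libraries, 80.2, 81.9 and 79.0 CPM in p16 libraries and 68.0, 70.4 and 65.4 CPM in EV libraries. It had the largest V1 rise in both comparisons with EV, with a log2 fold change of 0.48 ± 0.045 with p21 (edgeR adjusted p = 5.7e-06) and 0.24 ± 0.045 with p16 (adjusted p = 0.00532). It was also 17.8% higher in p21 than in p16 (adjusted p = 0.00472). Atp6v1d (D, the rotating shaft) had 49.95, 45.9 and 52.8 CPM in p21 libraries, 39.1, 38.7 and 36.4 CPM in p16 libraries and 36.5, 35.7 and 37.0 CPM in EV libraries. Its p16 and EV libraries overlapped. The log2 fold change was 0.45 ± 0.053 with p21 (edgeR adjusted p = 3.89e-05), 0.06 ± 0.053 with p16 (adjusted p = 0.49) and 0.38 ± 0.053 in p21 against p16 (adjusted p = 0.000626).

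Atp6v1f (F, which sits with D in the shaft) had 48.4, 43.9 and 49.0 CPM in p21 libraries, 39.0, 39.2 and 40.7 CPM in p16 libraries and 32.1, 35.7 and 36.9 CPM in EV libraries. No 2 groups overlapped. It was 35.0% higher with p21 (edgeR adjusted p = 9.59e-05). With p16 its log2 fold change was 0.18 ± 0.058 (adjusted p = 0.0635, or 0.0109 with the replicate block). It was 18.9% higher in p21 than in p16 (adjusted p = 0.0144, or 0.0554 without p21 replicate 1 and 0.0518 without p16 replicate 2). Atp6v1g1 (G, of the outer stalk) had 96.5, 88.5 and 96.8 CPM in p21 libraries, 83.1, 85.5 and 81.9 CPM in p16 libraries and 77.5, 77.0 and 79.6 CPM in EV libraries. Its rise with p21 was 20.3% (edgeR adjusted p = 0.000416). Atp6v1h (H, which controls the coupling of V1 to V0) had 78.6, 73.5 and 84.1 CPM in p21 libraries, 69.2, 71.2 and 68.0 CPM in p16 libraries and 65.3, 65.0 and 62.1 CPM in EV libraries. Each group was again apart from the others, and the rise with p21 was 22.7% (edgeR adjusted p = 0.000634). In p21 against p16, Atp6v1g1 passed at 0.024 and Atp6v1h at 0.0358. Both calls depended on single libraries: that of Atp6v1g1 reached 0.0982 without p21 replicate 1 and was also lost without p21 replicate 3, p16 replicate 1 or p16 replicate 3. That of Atp6v1h was lost without EV replicate 2 or any p21 or p16 library except p21 replicate 2, at up to 0.107.

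Atp6v1c1 (C, which clasps V1 to V0 and leaves when the pump comes apart) had the smallest V1 rise that passed, at 54.3 to 56.7 CPM in p21, 49.8 to 53.5 CPM in p16 and 50.03 to 51.2 CPM in EV libraries. Its log2 fold change with p21 was 0.14 ± 0.042 (edgeR adjusted p = 0.0169). This call was lost with library totals as the only scaling (0.0902) and without EV replicate 3, p21 replicate 1 or p21 replicate 3, at up to 0.0635. Atp6v1g2, the brain form of G, went the other way at a low level, with 0.74 to 1.021 CPM in p21, 0.76 to 1.25 CPM in p16 and 1.17 to 1.69 CPM in EV libraries, and did not pass (log2 fold change -0.62 ± 0.256 with p21, adjusted p = 0.0728). Atp6v1b1 (0 to 5 counts), Atp6v1c2 (1 to 15), Atp6v1e2 (0 to 2) and Atp6v1g3 (0 to 2), which are forms of kidney, epididymis, testis and other tissues, did not pass the filter. The general form of each of these subunits held at least 98.7% of its position per kb of exon in every library.

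**Figure D3:**
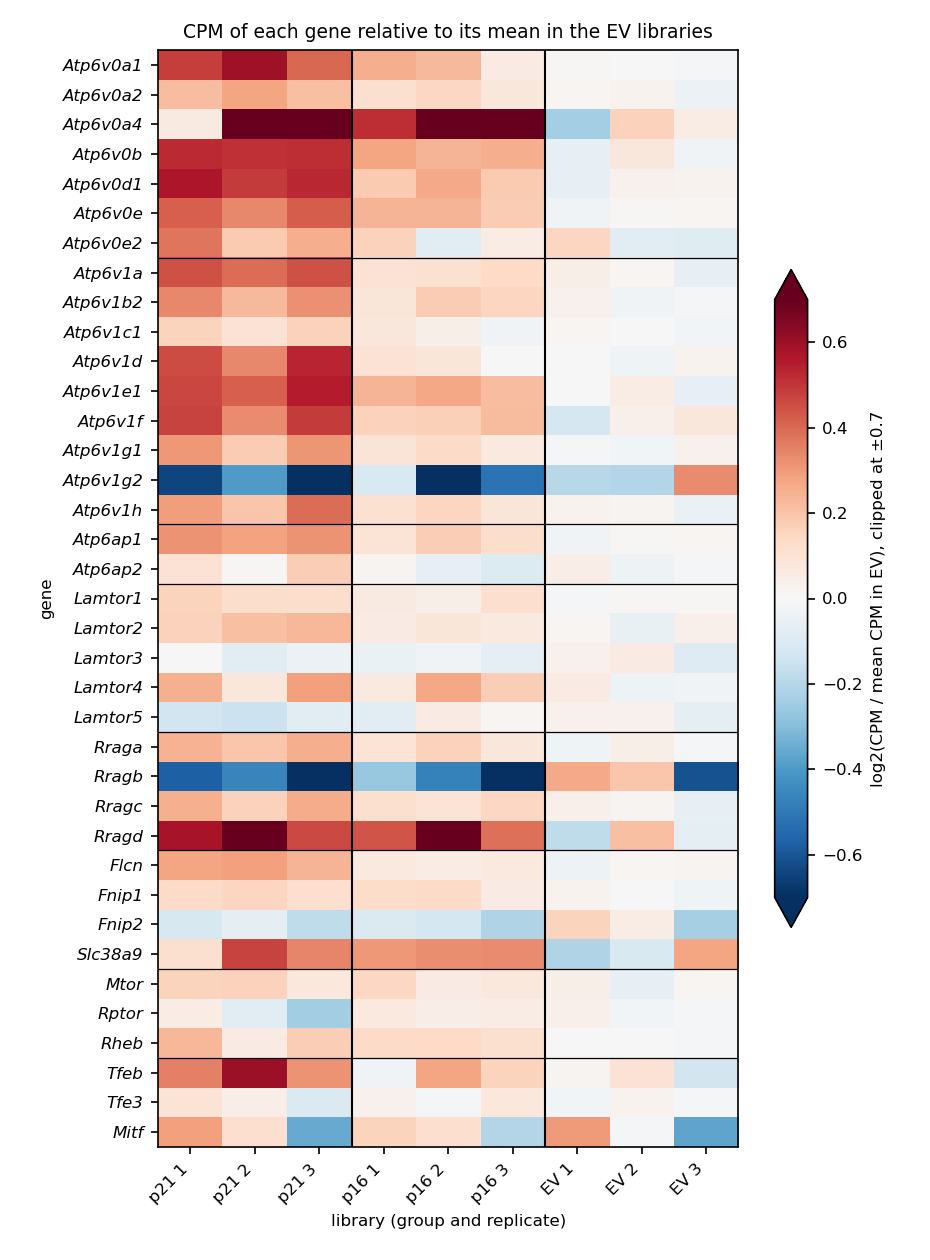
Log2 ratio of the CPM in each library (columns: p21 1 to 3, p16 1 to 3, EV 1 to 3) to the mean CPM of the EV libraries, for the 37 tested genes (rows, with lines between roles), clipped at ±0.7. Red is higher and blue lower than the EV mean. Most V0 and V1 rows are redder in the 3 p21 columns than in the p16 columns, and the deepest blues are in Atp6v1g2 and Rragb, genes under 2 CPM in every library.

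Of the accessory subunits, Atp6ap1 (Ac45, which guides assembly of V0) had 314.5, 306 and 314 CPM in p21 libraries, 269.8, 285 and 275 CPM in p16 libraries and 248, 254 and 255 CPM in EV libraries. The groups did not overlap. It rose by 0.30 ± 0.031 on the log2 scale with p21 (edgeR adjusted p = 9.64e-06) and was 0.17 ± 0.030 higher in p21 than in p16 (adjusted p = 0.003). Its smaller rise with p16, 0.13 ± 0.031 (adjusted p = 0.0166), was lost without EV replicate 1, EV replicate 2 or p16 replicate 2, at up to 0.0971. Atp6ap2, the prorenin receptor, had 47.8 to 53.7 CPM in p21, 44.5 to 48.2 CPM in p16 and 46.4 to 49.0 CPM in EV libraries and did not pass with p21 (log2 fold change 0.10, adjusted p = 0.162). In p21 against p16 its adjusted p was 0.0964, or 0.0309 with the replicate block. Atp6ap1l had 0 to 2 counts and was not tested.

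Levels were compared between pump genes as CPM per kb of exon. Atp6ap1 was highest, at 103 CPM per kb in p21, 91.5 CPM per kb in p16 and 83.5 CPM per kb in EV libraries, followed by Atp6v1g1 at 82.7, 73.6 and 68.8 CPM per kb in the same groups. Atp6v1h stood at 8.08, 7.13 and 6.58 CPM per kb and Atp6v0a4 at 0.21 CPM per kb in p21, 0.21 CPM per kb in p16 and 0.13 CPM per kb in EV libraries. On this scale the genes of this 1 complex stood at unequal levels in every group. The scale divides by all annotated exon bases of a gene, which can exceed the length of a single transcript. For Atp6v1h these are 9746 bases, against 2049 in its longest coding transcript, and for Atp6v1g1 both are 1135. The gap between such genes is therefore uncertain. Atp6v1g1 shares 31.5% and Atp6v1f 25.1% of transcript sequence with other annotated genes, so their counts are uncertain.

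By median log2 fold change, the sensing and signalling genes changed less than the pump. Of these 19 genes, all of them tested, 11 rose with p21, 0 rose with p16 and 1 was higher in p21 than in p16. Among all genes tested, 19.8%, 5.8% and 6.15% were higher in these comparisons. The counts of 0 and 1 are near their shares and are no result about these genes. At an unadjusted p under 0.05, 7 of the 19 were higher with p16 by edgeR, a count with no share of all genes to set it against. DESeq2 called 1, where it called 8.09% of all genes higher. With the replicate block 5 rose with p16, where 11.3% of all genes rose. The median log2 fold change was 0.13 in p21 against EV, 0.08 in p16 against EV and 0.03 in p21 against p16, where the 16 V0 and V1 genes had medians of 0.41, 0.13 and 0.20.

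Ragulator, the anchor of the Rag GTPases, had 3 of 5 genes higher with p21, where 19.8% of all genes rose. In p16 against EV and in p21 against p16, edgeR and DESeq2 called 0 of the 5. At an unadjusted p under 0.05 edgeR had 1 higher with p16, and 1 higher and 1 lower in p21 against p16. The counts in these 2 comparisons are too small to be a result about Ragulator. Lamtor2 had the smallest adjusted p of the 5 with p21, at 26.0, 26.8 and 27.3 CPM in p21, 24.1, 24.6 and 24.3 CPM in p16 and 23.5, 22.4 and 23.8 CPM in EV libraries (log2 fold change with p21 0.20 ± 0.044, edgeR adjusted p = 0.0032). Lamtor1, which carries the lipid anchor, had 98.8 to 101 CPM in p21, 93.5 to 98.6 CPM in p16 and 89.9 to 91.4 CPM in EV libraries (0.13 ± 0.036, adjusted p = 0.0102). Lamtor4 had 16.6 to 19.1 CPM in p21, 16.4 to 18.9 CPM in p16 and 15.3 to 16.4 CPM in EV libraries (0.21 ± 0.073, adjusted p = 0.0362). The call of Lamtor4 was lost without EV replicate 2, EV replicate 3, p21 replicate 1 or p21 replicate 3, at up to 0.114, and those of Lamtor1 and Lamtor4 were lost with library totals as the only scaling (0.0727 and 0.0901). Lamtor3 had 34.4 to 36.2 CPM in p21, 34.7 to 35.6 CPM in p16 and 34.1 to 37.7 CPM in EV libraries and showed no call. Lamtor5 was the other way round, with 27.0 to 28.5 CPM in p21, 28.4 to 31.2 CPM in p16 and 28.7 to 30.6 CPM in EV libraries. Its log2 fold change with p21 was -0.12 ± 0.049 (edgeR adjusted p = 0.0731), and it passed as lower with library totals as the only scaling (-0.17, adjusted p = 0.015). The 5 proteins form 1 complex, and their transcripts did not move as 1 unit. Lamtor1 shares 43.4%, Lamtor5 31.3% and Lamtor3 29% of transcript sequence with other annotated genes, and 18.7% of the exon bases of Lamtor1 overlap Lrrc51 on the opposite strand.

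Rag GTPases act as pairs of RagA or RagB with RagC or RagD. Rragc had 128, 121 and 130 CPM in p21 libraries, 117, 115 and 119 CPM in p16 libraries and 111, 109.5 and 104 CPM in EV libraries. The groups did not overlap, and the log2 fold change with p21 was 0.22 ± 0.040 (edgeR adjusted p = 0.000764). Rraga behaved alike, with 91.1 to 94.97 CPM in p21, 84.2 to 89.1 CPM in p16 and 78.2 to 81.9 CPM in EV libraries and a log2 fold change of 0.23 ± 0.040 (edgeR adjusted p = 0.000617). With p16 neither passed (0.0789 for Rragc, 0.0892 for Rraga), and with the replicate block both did (0.028 and 0.0387). In p21 against p16 the adjusted p was 0.1 for Rragc and 0.0727 for Rraga, or 0.0422 and 0.0283 with the block.

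Rragd, the partner form that TFEB is known to induce, was a minor transcript beside Rragc. It had 1.77, 2.02 and 1.63 CPM in p21 libraries, 1.61, 2.24 and 1.55 CPM in p16 libraries and 1.05, 1.37 and 1.13 CPM in EV libraries. Both inhibitor groups lay above EV and overlapped each other. The rise with p21 was 51.9% (log2 fold change 0.60 ± 0.205, edgeR adjusted p = 0.0332), and the difference with p16 was as large without passing (0.61 ± 0.203, adjusted p = 0.0757, or 0.0237 with the replicate block). The p21 call was lost without EV replicate 1, EV replicate 3, p21 replicate 1 or p21 replicate 2, at up to 0.106. Per kb, Rragd made up 0.808% to 1.07% of the Rragc and Rragd sum in p21, 0.831% to 1.24% in p16 and 0.607% to 0.802% in EV libraries. Rragb, at 0.399 to 0.544 CPM in p21, 0.285 to 0.624 CPM in p16 and 0.491 to 0.902 CPM in EV libraries, did not pass (adjusted p = 0.155 with p21).

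FLCN, with FNIP1 or FNIP2, stimulates GTP hydrolysis by RagC and RagD, a step that mTORC1 needs to act on TFEB. Flcn had 33.8, 34.2 and 33.0 CPM in p21 libraries, 29.4, 29.0 and 29.3 CPM in p16 libraries and 27.3, 28.2 and 28.4 CPM in EV libraries. The p21 libraries were clearly above the rest. The log2 fold change was 0.27 ± 0.040 with p21 (edgeR adjusted p = 0.000195), 0.06 with p16 (adjusted p = 0.338) and 0.20 ± 0.039 in p21 against p16 (adjusted p = 0.00513). In p21 against p16 Flcn alone of the 19 sensing and signalling genes passed without the block, where 6.15% of all genes were higher. With the block Rraga and Rragc passed as higher too, where 11% of all genes were higher.

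Of the FNIP partners, Fnip1 alone was called. Fnip1 had 30.0 to 30.6 CPM in p21, 28.8 to 30.3 CPM in p16 and 27.1 to 28.1 CPM in EV libraries, and passed with p21 (log2 fold change 0.13 ± 0.041, edgeR adjusted p = 0.0215). That call was lost with library totals as the only scaling (0.124), with no filter on low counts (0.0539), and without EV replicate 2, EV replicate 3, p21 replicate 1 or p21 replicate 2, at up to 0.0945. Fnip2 had 17.9 to 19.3 CPM in p21, 17.4 to 18.8 CPM in p16 and 17.2 to 22.5 CPM in EV libraries. The EV libraries of Fnip2 were spread, with replicate 3 lowest, and it did not pass (adjusted p = 0.283 with p21). Without EV replicate 3 it passed as lower with p21 (-0.22, adjusted p = 0.0191) and with p16 (-0.25, adjusted p = 0.0351). Fnip1 thus held 65.1% to 66.3% of the FNIP sum per kb in p21, 65.4% to 66% in p16 and 59.5% to 64.9% in EV libraries. Slc38a9, the lysosomal transporter that reports arginine to the Rags, had 4.30 to 5.51 CPM in p21, 4.91 to 4.99 CPM in p16 and 3.43 to 4.81 CPM in EV libraries. Its log2 fold changes of 0.32 ± 0.139 with p21 (adjusted p = 0.0884) and 0.33 with p16 (adjusted p = 0.155) did not pass. Both passed with the replicate block (0.0312 with p21 and 0.0487 with p16) and without EV replicate 3 (0.0149 with p21 and 0.0432 with p16).

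**Figure D4:**
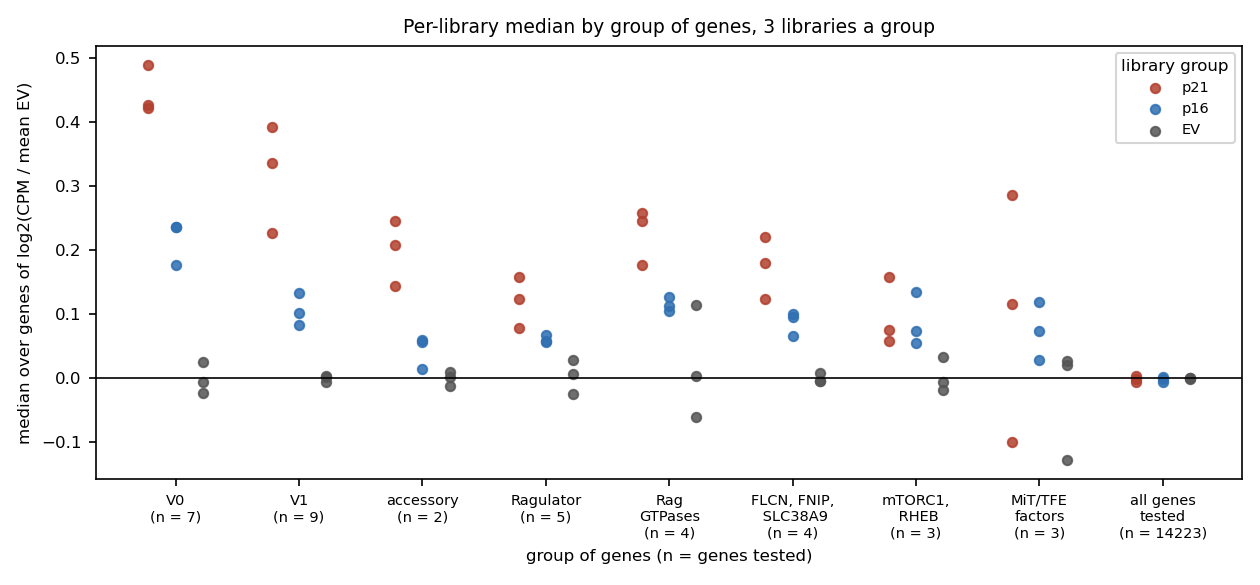
Median over the tested genes of a role (x axis, number of genes in brackets) of the log2 ratio of each library's CPM to the EV mean (y axis), with 1 point for each library of p21, p16 and EV. V0 has the highest p21 points (0.42 to 0.49), V1 and the Rag genes follow, and the 14223 genes tested have medians near 0 in every library.

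mTORC1 itself changed little. Mtor, the kinase, had 72.2, 72.4 and 68.2 CPM in p21 libraries, 71.6, 67.3 and 68.1 CPM in p16 libraries and 66.6, 62.2 and 65.4 CPM in EV libraries. It passed narrowly with p21 (log2 fold change 0.13 ± 0.046, edgeR adjusted p = 0.0369). The Mtor call was lost with library totals as the only scaling (0.172), with no filter (0.0582), in a fit of the 2 groups alone (0.0531), and without EV replicate 2, EV replicate 3, p21 replicate 1 or p21 replicate 2, at up to 0.14.

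Rptor, which encodes the subunit that contacts the Rags and the substrates, did not rise. It had 55.3, 50.8 and 45.03 CPM in p21 libraries, 55.9, 55.0 and 55.4 CPM in p16 libraries and 54.6, 52.7 and 52.8 CPM in EV libraries. The p21 libraries were spread over a wider range than the other groups. Its log2 fold change was -0.08 with p21 (edgeR adjusted p = 0.31) and -0.14 ± 0.062 in p21 against p16 (adjusted p = 0.166). In that comparison it passed as lower with the replicate block (adjusted p = 0.0358), where 11.6% of all genes did. Without p21 replicate 1 it passed as lower against p16 (-0.21, adjusted p = 0.04) and against EV (-0.16, adjusted p = 0.0486). Rheb had 119.6, 106 and 115 CPM in p21 libraries, 112, 112 and 110.1 CPM in p16 libraries and 102, 102 and 101 CPM in EV libraries. Both inhibitor groups lay above EV. The log2 fold change was 0.16 ± 0.043 with p21 (edgeR adjusted p = 0.0121, or 0.0657 without p21 replicate 1 and 0.0538 with library totals as the only scaling). With p16 it was 0.13 (adjusted p = 0.0725, or 0.0182 with the replicate block).

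Of the transcription factors that mTORC1 holds in check, Tfeb alone rose. Tfeb had 4.497, 5.33 and 4.39 CPM in p21 libraries, 3.46, 4.26 and 3.93 CPM in p16 libraries and 3.57, 3.77 and 3.23 CPM in EV libraries. All p21 libraries were above all others, and p16 overlapped EV. The rise with p21 was 33.9% (log2 fold change 0.42 ± 0.126, edgeR adjusted p = 0.0184), and the call was lost without EV replicate 3 or p21 replicate 2, at up to 0.0703. Neither p16 against EV (0.14, adjusted p = 0.541) nor p21 against p16 (0.28, adjusted p = 0.167) passed.

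Tfe3, the factor with the highest level per kb, had 68.5, 66.03 and 59.7 CPM in p21 libraries, 65.3, 63.4 and 67.3 CPM in p16 libraries and 63.2, 65.2 and 63.6 CPM in EV libraries. Its log2 fold change with p21 was 0.02 (edgeR adjusted p = 0.833). Mitf had 4.41, 3.92 and 2.83 CPM in p21 libraries, 4.03, 3.93 and 3.14 CPM in p16 libraries and 4.46, 3.60 and 2.80 CPM in EV libraries. In every group the replicate 3 library had the lowest Mitf value, and the log2 fold change with p21 was 0.04 (adjusted p = 0.9). Tfe3 held 81.0% to 83.0% of the family sum per kb in p21, 82.7% to 85.6% in p16 and 82.9% to 86.3% in EV libraries, and Tfeb held 8.84% to 10.7% in p21, 7.3% to 9.07% in p16 and 7.15% to 8.01% in EV libraries. That sum includes Tfec, added from outside the set. Tfec held 0.872% to 1.15% in p21, 0.257% to 0.618% in p16 and 0.295% to 0.864% in EV libraries. Melanocyte markers, read because melanocytes use Mitf, summed to 0.923 to 1.16 CPM in p21, 0.905 to 1.14 CPM in p16 and 0.478 to 0.98 CPM in EV libraries. Of the 6 markers 2 passed the filter, Mlana had 0 counts in every library, and Dct and Tyrp1 had at most 4 counts. Of the 2 tested, Sox10 rose with p21 (1.23 ± 0.415, edgeR adjusted p = 0.0324), where 19.8% of all genes rose. Its means were low, at 0.238 CPM in p21, 0.205 CPM in p16 and 0.101 CPM in EV libraries. Pmel did not pass (adjusted p = 0.179 with p21). With the replicate block, and by DESeq2, 0 of these 2 were called with p21.

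The E-box core was set beside these calls. Of the 31 tested genes with a promoter window, 10 contained CACGTG, and 9 of these 10 rose with p21, against 11 of the 21 without it. Atp6v0a1, Atp6v1d, Atp6v1e1 and Atp6v1f were among those 11. The 10 genes with the core included Lamtor1, Lamtor4, Rragb, Rragc, Fnip1 and Rheb as well as the 4 V-ATPase genes shown above, and Rragb, which did not rise, had the core 3 times. All 3 genes with TCACGTGA (Atp6v1a, Atp6v0d1 and Atp6v0e) rose with p21, against 17 of the 28 without it. These counts are a description and were not tested.

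Other genes of the same pathways, on lists drawn from their known roles, were read in the same fit. Of 24 lysosomal genes known as TFEB targets, outside the V-ATPase, 22 rose with p21, 13 rose with p16 and 11 were higher in p21 than in p16, with 0 lower in each comparison (also 0 by DESeq2 and at an unadjusted p under 0.05). Of all genes tested, 19.8%, 5.8% and 6.15% were higher and 20.1%, 5.56% and 6.91% lower by edgeR. The median log2 fold changes of the 24 genes, 0.35, 0.18 and 0.19 in these 3 comparisons, lay beside 0.41, 0.13 and 0.20 for the V0 and V1 genes. Ctsd, the protease cathepsin D, rose by 0.67 ± 0.038 with p21 (edgeR adjusted p = 1.18e-07), and 34.4% of its exon bases are shared with Gm49369 on the same strand. With p16, Sqstm1, an autophagy receptor (0.31 ± 0.034, adjusted p = 0.000349), and Gpnmb, a lysosomal glycoprotein (0.72 ± 0.093, adjusted p = 0.000741), rose. Psap, the precursor of the saposins, was 0.23 ± 0.033 higher in p21 than in p16 (adjusted p = 0.000726).

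Among 12 tested genes of other V-ATPase subunits and assembly factors, 5 rose and 1 fell with p21, 1 rose with p16 (3 with the replicate block), and 2 were higher and 1 lower in p21 than in p16. Of all genes, 19.8% rose and 20.1% fell with p21, and 5.8% rose with p16 (11.3% with the block). In p21 against p16, 6.15% were higher and 6.91% lower. The count of 1 with p16 is near its share and is no result about this list. Rnasek, a small V0-associated protein, had 63.2, 61.2 and 60.4 CPM in p21 libraries, 51.5, 50.5 and 44.5 CPM in p16 libraries and 40.6, 41.2 and 37.8 CPM in EV libraries. Its log2 fold change was 0.63 ± 0.058 with p21 (edgeR adjusted p = 4.66e-06), 0.29 ± 0.058 with p16 (adjusted p = 0.00746) and 0.33 ± 0.057 in p21 against p16 (adjusted p = 0.00247). Of its exon bases 67.7% are shared with Gm21988 on the same strand. Tldc1 rose with p21 (0.52 ± 0.107, adjusted p = 0.00206) and Ncoa7 fell by 0.32 ± 0.063 (adjusted p = 0.00141). Both encode TLDc domain proteins, a family known to bind the V-ATPase.

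Regulators upstream of the Rags were called in both directions, on short lists whose counts stand beside the same 19.8% and 20.1% of all genes. GATOR1, which switches RagA and RagB off, and its anchor KICSTOR had 1 of 6 genes higher (Nprl3, 0.21 ± 0.067, edgeR adjusted p = 0.0255) and 3 lower with p21. Itfg2, of KICSTOR, had 13.7, 14.9 and 12.9 CPM in p21 libraries, 16.04, 14.7 and 14.8 CPM in p16 libraries and 18.2, 18.7 and 18.2 CPM in EV libraries. It fell by 0.41 ± 0.067 on the log2 scale with p21 (adjusted p = 0.000385) and by 0.28 ± 0.066 with p16 (adjusted p = 0.0197). Kptn, also of KICSTOR, fell by 0.38 ± 0.092 with p21 (adjusted p = 0.0056). Of 10 genes of GATOR2 and the amino acid sensors, 4 rose and 2 fell with p21. Gatsl3, the older symbol of the arginine sensor Castor1, had 26.4, 26.5 and 27.3 CPM in p21 libraries, 20.1, 19.6 and 21.2 CPM in p16 libraries and 15.4, 17.3 and 16.4 CPM in EV libraries. Its groups did not overlap, and it rose by 0.71 ± 0.055 with p21 (adjusted p = 1.12e-06) and by 0.31 ± 0.055 with p16 (adjusted p = 0.0045), with 0.40 ± 0.054 between p21 and p16 (adjusted p = 0.000514). Gatsl2 rose by 0.22 ± 0.060 (adjusted p = 0.0109) and Seh1l, of GATOR2, fell by 0.26 ± 0.047 (adjusted p = 0.000919) with p21.

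No TSC gene was called by edgeR or DESeq2, or at an unadjusted p under 0.05, in any comparison (0 of 3). TSC is the inhibitor of RHEB, and its log2 fold changes with p21 ran between -0.04 for Tsc1 and 0.01 for Tbc1d7. Of 9 other subunits and partners of the mTOR complexes, 1 rose and 3 fell with p21, where 19.8% of all genes rose and 20.1% fell, and of 7 mTORC1 substrates, 1 rose and 2 fell. Counts this near the share over all genes are no result about either list. Akt1s1 (PRAS40, an inhibitory partner of mTORC1) rose by 0.24 ± 0.039 with p21 (edgeR adjusted p = 0.00038) and by 0.15 ± 0.039 with p16 (adjusted p = 0.0283). Telo2, a chaperone of mTOR, fell by 0.40 ± 0.083 (adjusted p = 0.00228) and Rictor, of mTORC2, fell by 0.26 ± 0.059 (adjusted p = 0.00345) with p21. Of the substrates, Ulk1 rose by 0.20 ± 0.052 (adjusted p = 0.00958), Eif4ebp2 fell by 0.23 ± 0.065 (adjusted p = 0.0129) and Rps6kb1 fell by 0.12 ± 0.040 (adjusted p = 0.0382). Transcript levels do not measure the activity of mTORC1.

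Of the markers of macrophages and osteoclasts, cells with much V-ATPase, some rose with p21 and others did not. The 11 markers in the table summed to 79.4 to 92.2 CPM in p21, 69.3 to 90.1 CPM in p16 and 59.9 to 70.3 CPM in EV libraries. The largest values were those of Ctsk (means of 43.3 CPM in p21 and 34.6 CPM in EV libraries) and Lyz2 (26.5 and 15.5 CPM). Of the 9 tested, 5 rose with p21 (Csf1r, Ptprc, Tyrobp, Lyz2 and Ctsk), where 19.8% of all genes rose. Cd68, Fcer1g, Itgam and Acp5 did not pass with p21. With p16 1 rose (Ctsk), where 5.8% of all genes rose, and 0 differed between p21 and p16, also by DESeq2 and at an unadjusted p under 0.05. With the replicate block, 6 rose with p21, 4 rose with p16 and 1 was higher in p21 than in p16, where 24%, 11.3% and 11% of all genes did. DESeq2 called 4 of these markers higher with p21, where it called 2805 of 14779 genes higher. With p16 it called 2, where it called 8.09% of genes higher. The macrophage receptor gene Csf1r stood at 5.08 CPM in p21, 4.11 CPM in p16 and 2.83 CPM in EV libraries, and the osteoclast fusion genes Dcstamp and Ocstamp had at most 4 counts. Their part in the V-ATPase results was not tested. Of 5 neuronal markers, Rbfox3 and Snap25 had at most 1 count. Tubb3 (means of 79.69 CPM in p21 and 75.65 CPM in EV libraries) and Map2 (5.86 and 7.97 CPM) did not pass in the main fit. Of 6 epithelial markers, Foxi1 and Slc4a1, of the cells that use the B1 and a4 forms, had 0 counts in every library. Krt18 had means of 13.98 CPM in p21, 11.97 CPM in p16 and 12.06 CPM in EV libraries. It rose with p21 (edgeR adjusted p = 0.02), where 19.8% of all genes rose. It was also higher in p21 than in p16 (adjusted p = 0.0393), where 6.15% were. Krt8, the other epithelial marker tested, did not pass.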

How the data were processed

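The 9 RNA-seq libraries came from mouse embryonic fibroblasts with p21, p16 or an empty vector (EV), 3 of each. The authors deposited 1 table of raw counts by gene symbol. Per the submitters' processing notes, the authors used TopHat2 2.0.14, Bowtie2 2.2.6, featureCounts 1.4.6 and Subread with mm10. The gene annotation and strand setting are not given in the sources used here, and the kit keeps no strand.

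The members and gene lists were chosen with earlier results of these data known. Values in every library are given for Tfeb, Tfe3, Mitf, Mtor, Rptor, Rheb, Flcn, Rragc and Rragd, for the 12 members with the smallest adjusted p in p21 against EV and for members that passed p16 against EV, p21 against p16 or any comparison as lower. Of the other lists, up to 3 genes with the smallest adjusted p per comparison are named. Some list genes that this rule takes are not reported here. Lamtor2, the other members with single values and the per-library values of list genes were added after their values were seen.

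Counts were fitted with edgeR 4.0.16 in R 4.3.3: filterByExpr (minimum count 10, minimum total 15), TMM scaling, 1 quasi-likelihood fit of all 9 libraries by group with 6 residual degrees of freedom, two-sided F tests, Benjamini-Hochberg adjustment over 14223 genes and a threshold of 0.05. SE was taken as the size of the log2 fold change over the root of F. CPM uses TMM-scaled totals, and summed markers use library totals. The biological coefficient of variation was 7.3%. Squared differences between libraries of a group exceeded counting error 5.3 to 17.1 times, and genes with few counts are limited by depth. Exon lengths (all annotated exons of a gene), overlaps and shared transcript sequence came from GENCODE M21 (GRCm38), and promoters from RefSeq (GRCm38.p6). Alternatives were RLE size factors, library totals only, no filter, a fit without either delivered gene, DESeq2 1.42.0, fits of the 2 groups compared, a block for the replicate number, replicates 1 and 2 only, and each library left out. What the replicate numbers mean is not in the labels. With group means removed, deviations across genes correlated at 0.126 to 0.361 between same-numbered libraries and at -0.246 to 0.106 between others. Same-numbered values were 0.332 to 0.361 for replicate 3 and 0.126 to 0.202 for replicates 1 and 2, so the contrast was largest for replicate 3. The numbers were taken to pair the samples in the blocked fit only, and blocked values are given where they change a call. Figures were drawn with Python 3.11.15, pandas 2.3.3 and matplotlib 3.10.9.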

Additional observations from a re-analysis of the deposited data

How the results depend on the processing

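The directions of the called members were the same under every alternative, and the median log2 fold change of the members stayed above 0 in all of them. With library totals only, the medians were 0.185 with p21 and 0.081 with p16, 1 member (Lamtor5) fell with p21, and 36.8% of all calls with p21, 33.3% with p16 and 37% in p21 against p16 were higher, against 49.6%, 51.1% and 47.1% with TMM. With replicates 1 and 2 only, 2 members (Lamtor5 and Fnip2) fell with p21. The same fit lost the calls of Atp6v1c1 (adjusted p = 0.065), Lamtor4 (0.183), Rragd (0.0552) and Fnip1 (0.0931) with p21, and of Atp6v0e (0.0507), Atp6v1b2 (0.0737), Atp6v1g1 (0.0889) and Atp6v1h (0.138) in p21 against p16. In that comparison the fit of 2 groups lost Atp6v1b2 (0.0642) and Atp6v1h (0.0602), and no filter lost Atp6v1b2 (0.053). Members that rose with p16 numbered 11 with DESeq2, 11 in the fit of these 2 groups and 15 with the replicate block, against 5. The block gave 3044 genes called with p16 against 1616, and 3214 in p21 against p16 against 1858, with 1 member lower (Rptor), and its added calls among members are beside the results. Leaving out 1 library gave 4617 to 5659 genes called with p21 (5681 with all 9), 20 to 25 members higher and 0 to 1 lower, where the 1 was Fnip2 without EV replicate 3 and Rptor without p21 replicate 1. For p16 it gave 759 (without p16 replicate 2) to 1894 genes called, 4 to 9 members higher (9 without p21 replicate 2) and 0 to 1 lower (Fnip2, without EV replicate 3). Without EV replicate 1, EV replicate 2, p16 replicate 1 or p16 replicate 3 there were 826, 921, 1070 and 984. For p21 against p16 it gave 1074 (without p16 replicate 1) to 1810 genes called, 8 (without p21 replicate 1) to 14 members higher and 0 to 1 lower (Rptor, without p21 replicate 1). Without p21 replicate 1 or p16 replicate 2 there were 1078 and 1151 genes called. The cause was not tested, except that fits without a library hold fewer samples.

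Values that changed sign were uncalled in the fit reported and under the setting that changed them. With library totals only they were Lamtor3 (-0.012) and Mitf (-0.010) in p21 against p16, Lamtor5 (-0.031), Tfe3 (-0.002) and Mitf (-0.003) with p16, and Tfe3 (-0.033) and Mitf (-0.013) with p21. With replicates 1 and 2 only they were Lamtor3 (-0.000), Lamtor4 (-0.003) and Tfe3 (0.064) in p21 against p16, and Lamtor5 (-0.036) and Mitf (-0.018) with p16. With the replicate block they were Rragb (0.021) and Rragd (0.016) in p21 against p16 and Lamtor5 (-0.001) with p16. Lamtor5 with p16 was -0.004 without the delivered genes, -0.001 with no filter and -0.000 with DESeq2. With 1 library left out, p21 against p16 ranged from -0.196 to 0.160 for Atp6v0a4, -0.331 to 0.041 for Atp6v1g2, -0.004 to 0.056 for Fnip2, -0.014 to 0.024 for Lamtor3, -0.011 to 0.097 for Lamtor4, -0.140 to 0.173 for Mitf, -0.015 to 0.072 for Rheb, -0.270 to 0.197 for Rragb, -0.101 to 0.192 for Rragd, -0.091 to 0.086 for Slc38a9 and -0.056 to 0.041 for Tfe3. With p16 it ranged from -0.015 to 0.130 for Atp6v0e2, -0.032 to 0.034 for Lamtor5 and -0.122 to 0.204 for Mitf, and with p21 from -0.112 to 0.215 for Mitf and -0.027 to 0.071 for Tfe3. Genes near 1 CPM (Atp6v0a4, Atp6v1g2, Rragb, Rragd) are limited by depth.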
